A study of Mus musculus with 18 samples.

Results

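This report describes the mRNA of 10 genes, most of them regulators of the step from G1 to S phase, in bone marrow-derived macrophages (BMDMs). They are the D-type cyclins Ccnd1, Ccnd2 and Ccnd3, cyclin E1 (Ccne1), cyclin O (Ccno), the cyclin-dependent kinase (CDK) inhibitors Cdkn1a, Cdkn1b, Cdkn2b and Cdkn2c, and Myc. The genes were chosen by name from the 50600 genes of the count table, with earlier results of these data known, and Ccno was included as a gene raised by defactinib. Its values in the LPS-stimulated libraries may thus have chosen it, and in each comparison that uses such libraries of either genotype it is described without a test. All 10 genes had 1 row each and passed the filter on low counts, as did 15663 genes in all.

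RNA was sequenced from macrophages grown from mouse bone marrow for 8 days with GM-CSF, from WT or IRF5-/- mice (IRF5 KO). In each genotype 3 libraries were unstimulated, 3 had LPS at 100 ng/ml for 2 h after DMSO, and 3 had the same LPS after 1 h with defactinib at 3.5 µM, which gives 6 groups and 18 libraries. Defactinib is an inhibitor of the kinases PYK2 and FAK, LPS is a bacterial ligand of TLR4, and IRF5 is a transcription factor of the TLR4 response. The purpose was to see how the inhibitor changes the LPS response with and without IRF5. The labels give the unstimulated cells as DMSO-treated, whereas the column names call them untreated, so that their vehicle is uncertain, and no group had defactinib without LPS. The strain, age and sex of the mice behind these libraries are not given in the labels, and cultures with GM-CSF can also hold dendritic-like cells.

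D-type cyclins bind CDK4 and CDK6 and carry growth signals into the phosphorylation of RB, which frees E2F factors, and cyclin E with CDK2 then completes the step into S phase. The INK4 inhibitors, to which Cdkn2b and Cdkn2c belong, block CDK4 and CDK6, while the Cip/Kip inhibitors Cdkn1a (p21) and Cdkn1b (p27) bind cyclin-CDK complexes more broadly. Myc is a transcription factor of growth and ribosome production. Macrophages stop dividing as they mature, and cyclin O is best known from the formation of centrioles in multiciliated cells.

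Counted read pairs ranged from 39282181 to 61949143 per library. Values are CPM, counts scaled to a common library total after TMM normalization. Reads of Irf5 were present in the IRF5 KO libraries at 335 to 435 CPM, against 213 to 650.3 CPM in WT, so that the counts over the whole gene did not check the knockout label. The summed level of 8 macrophage markers was 17873 to 18836 CPM in IRF5 KO LPS defactinib, against 9609.6 to 12226 CPM in IRF5 KO LPS DMSO and 10292 to 14663 CPM in IRF5 KO unstimulated. In WT it was 9931 to 10268 CPM unstimulated, 9566 to 10096 CPM with LPS DMSO and 10771 to 15278 CPM with LPS and defactinib. Lyz2 made up most of this sum, at 14951 to 15899 CPM in IRF5 KO LPS defactinib and 8341 to 12151 CPM in IRF5 KO unstimulated. Between these groups 4 of the 8 markers, Lyz2, Adgre1, Itgam and Cd68, were higher with LPS and defactinib without overlap, Fcgr1 and Mertk were lower without overlap, and Csf1r and Mrc1 overlapped. Of all tested genes, 72.5% did not overlap between the same groups, so that lack of overlap does not set these markers apart. Adgre1 was at 519 to 538 CPM against 291 to 320.2 CPM, and Fcgr1 at 37.6 to 39.96 CPM against 89.6 to 98.97 CPM. The sum of 8 dendritic cell markers was 14565 to 15415 CPM in WT unstimulated, 16873 to 20603 CPM in WT LPS DMSO and 13268 to 18983 CPM in WT LPS defactinib, and in IRF5 KO 10790 to 12537, 14621 to 22435 and 16879 to 18701 CPM in the same order. Among them Ccr7 was at 266 to 368 CPM in WT LPS DMSO and 8.78 to 47.6 CPM in WT LPS defactinib, and Zbtb46 at 86.5 to 97.2 CPM and 19.99 to 30.2 CPM. Dpp4 went the other way without overlap, from 10.01 to 12.996 CPM to 22.7 to 37.4 CPM, Xcr1 was under 0.4 CPM throughout, and Flt3, Itgax, H2-Ab1 and Cd74 overlapped. The part of either marker list in the differences of the 10 genes was not tested. Ptk2b, which encodes PYK2, was at 101 to 186 CPM and Ptk2, which encodes FAK, at 15.3 to 43.5 CPM. Neutrophil markers summed to 51.9 to 74.4 CPM unstimulated and 109.8 to 214 CPM after LPS. Markers of T, B and NK cells, each list summed on its own, were at most 3.02 CPM in any library.

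The IRF5 KO LPS DMSO group held a library that stood apart. Its replicates 1 and 2 differed by a chi-square of 2.33 per gene, the smallest of any pair, whereas replicate 3 differed from them by 441 and 425. Pairs within the other groups were at 3.82 to 183, and sampling noise alone gives 1. Which of the IRF5 KO LPS DMSO libraries represents the condition cannot be read from the labels, so the LPS and defactinib differences of the 10 genes in IRF5 KO are given with all libraries, and also without replicate 3 and without replicates 1 and 2. In the last case the remaining library is assumed to vary like the other groups. The WT LPS defactinib replicate 3 was the next most distant, at 140.3 and 183. Without it the same 5 genes remained called with defactinib in WT, at -2.43 for Ccnd2, -1.14 for Ccne1, -2.87 for Cdkn1a, -3.81 for Cdkn1b and -1.74 for Cdkn2b.

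Promoter windows of 250 bases before the start were found for 7 of the 10 genes in the RefSeq annotation (GRCm38.p6). They were searched on both strands for the AP-1 motif TGANTCA, the CRE TGACGTCA, the E-box CACGTG, the E2F motif TTTNNCGC, the GC box GGGCGG and, by name, the ISRE core, NF-kB, CArG and p53 decamer motifs. The windows of Ccno, Cdkn1a, Cdkn1b and Cdkn2b are printed, because these genes moved furthest with defactinib or hold the rarer motifs, with each match in capitals.
Ccno, chr13:112987552-112987801 (+ strand): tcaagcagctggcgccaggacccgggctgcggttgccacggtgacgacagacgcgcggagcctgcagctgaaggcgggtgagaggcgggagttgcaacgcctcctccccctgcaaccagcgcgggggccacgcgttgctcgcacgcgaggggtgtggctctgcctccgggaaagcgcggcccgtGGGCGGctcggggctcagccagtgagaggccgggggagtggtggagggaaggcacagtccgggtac
Cdkn1a, chr17:29090729-29090978 (+ strand): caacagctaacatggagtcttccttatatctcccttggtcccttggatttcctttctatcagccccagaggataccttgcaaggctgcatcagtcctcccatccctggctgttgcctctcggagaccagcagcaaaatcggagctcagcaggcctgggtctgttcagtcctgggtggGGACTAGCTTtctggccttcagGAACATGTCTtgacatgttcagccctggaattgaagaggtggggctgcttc
Cdkn1b, chr6:134920151-134920400 (+ strand): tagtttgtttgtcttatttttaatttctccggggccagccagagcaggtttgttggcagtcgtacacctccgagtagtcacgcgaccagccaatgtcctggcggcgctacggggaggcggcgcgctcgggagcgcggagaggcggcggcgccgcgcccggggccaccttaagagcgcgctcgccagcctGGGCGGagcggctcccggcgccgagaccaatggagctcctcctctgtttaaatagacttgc
Cdkn2b, chr4:89311033-89311282 (- strand): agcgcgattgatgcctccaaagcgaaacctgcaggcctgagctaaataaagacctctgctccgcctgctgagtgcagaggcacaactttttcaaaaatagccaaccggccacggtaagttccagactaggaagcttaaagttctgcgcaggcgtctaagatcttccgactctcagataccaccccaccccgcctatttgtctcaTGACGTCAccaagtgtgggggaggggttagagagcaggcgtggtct
The windows of Ccno and Cdkn1b each held a GC box and no other motif of the search, and 32.7% of all 32851 windows held this motif. Cdkn1a, a p53 target gene, held p53 decamers at bases -73 to -64 and -51 to -42 from the start, and 7.13% of all windows held at least 1 such match. Cdkn2b held a CRE at bases -46 to -39, and 1.55% of all windows held it. The window of Ccno was 72.4% G and C and that of Cdkn1b 64.4%, against 54.0% for Cdkn1a, 53.6% for Cdkn2b and a median of 52.4%. A match describes the letters of the window and not the binding of a factor.

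LPS in WT cells moved 5 of the 9 genes tested: Ccnd2, Cdkn1a and Cdkn1b rose, and Ccnd1 and Myc fell. Genes were called at an adjusted p below 0.05 in edgeR's quasi-likelihood test and a change of more than 2-fold, and 21.3% of all tested genes were called in this comparison, 11.6% higher and 9.71% lower. In IRF5 KO cells LPS moved 1 of 9, Myc, which fell, where 13.3% of all genes were called, 7.07% higher and 6.28% lower. Defactinib before LPS lowered 5 of 9 in WT cells, namely Ccnd2, Ccne1, Cdkn1a, Cdkn1b and Cdkn2b, where 18.6% of all genes were called lower and 10.4% higher, 29.1% in all. In IRF5 KO cells defactinib moved 0 of 9 by edgeR, with 5 at an unadjusted p below 0.05 and 1 called by DESeq2, where 0.919% of all genes were called, 0.16% higher and 0.76% lower. That count was 0 without IRF5 KO LPS DMSO replicate 3, where 1.45% of all genes were called, and 5, all lower, without replicates 1 and 2, where 14.6% of all genes were called lower and 4.63% higher. The LPS count in IRF5 KO was 3, all lower, without replicate 3, where 16.6% of all genes were called lower and 9.64% higher, and 0 without replicates 1 and 2, where 2.71% were called. The median log2 fold change of the tested genes was -0.23 with LPS in WT, -0.37 with LPS in IRF5 KO, -1.18 with defactinib in WT and -0.50 with defactinib in IRF5 KO, beside medians over all genes from -0.04 to 0.09. The LPS DMSO libraries of a genotype enter both its LPS and its defactinib comparison. In whole cultures, fewer cells of a type and less RNA per cell cannot be told apart.

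**Figure D1:**
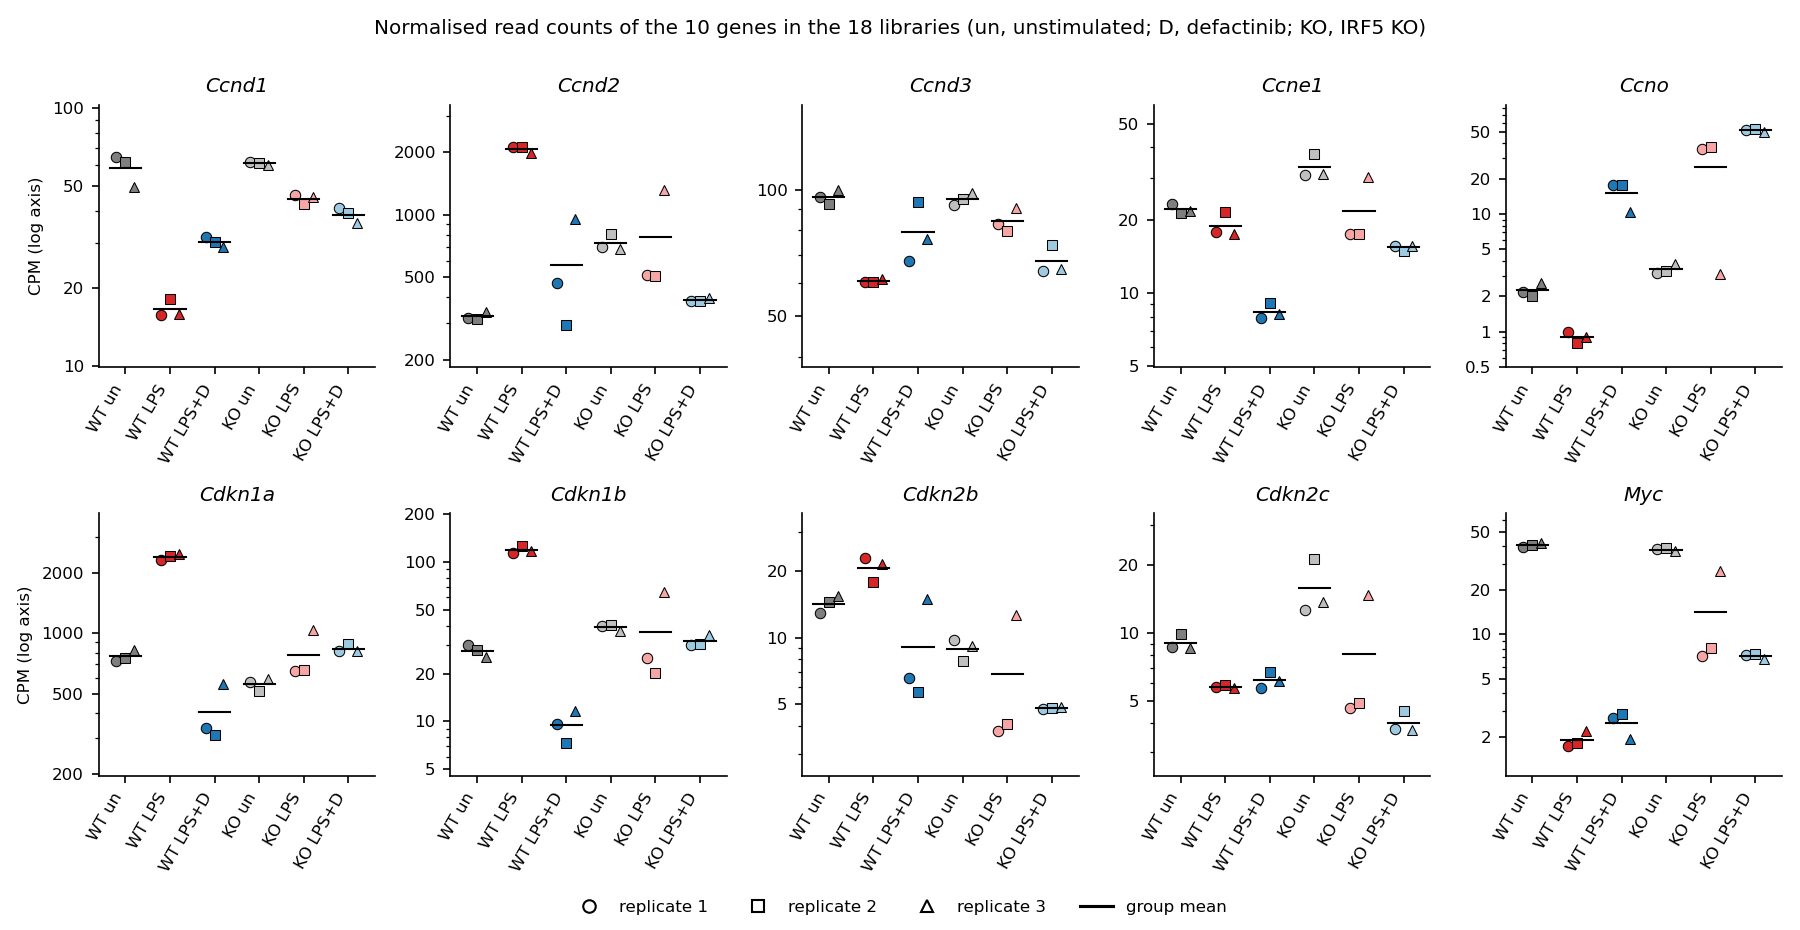
CPM (log axis) of each of the 10 genes in the 18 libraries by group, with 1 marker per library, its shape giving the replicate number, and a line at the group mean of 3 libraries. Ccnd2, Cdkn1a and Cdkn1b were highest in the 3 WT LPS DMSO libraries, where Ccnd1, Ccnd3, Ccno and Myc had their lowest group means.

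**Figure D2:**
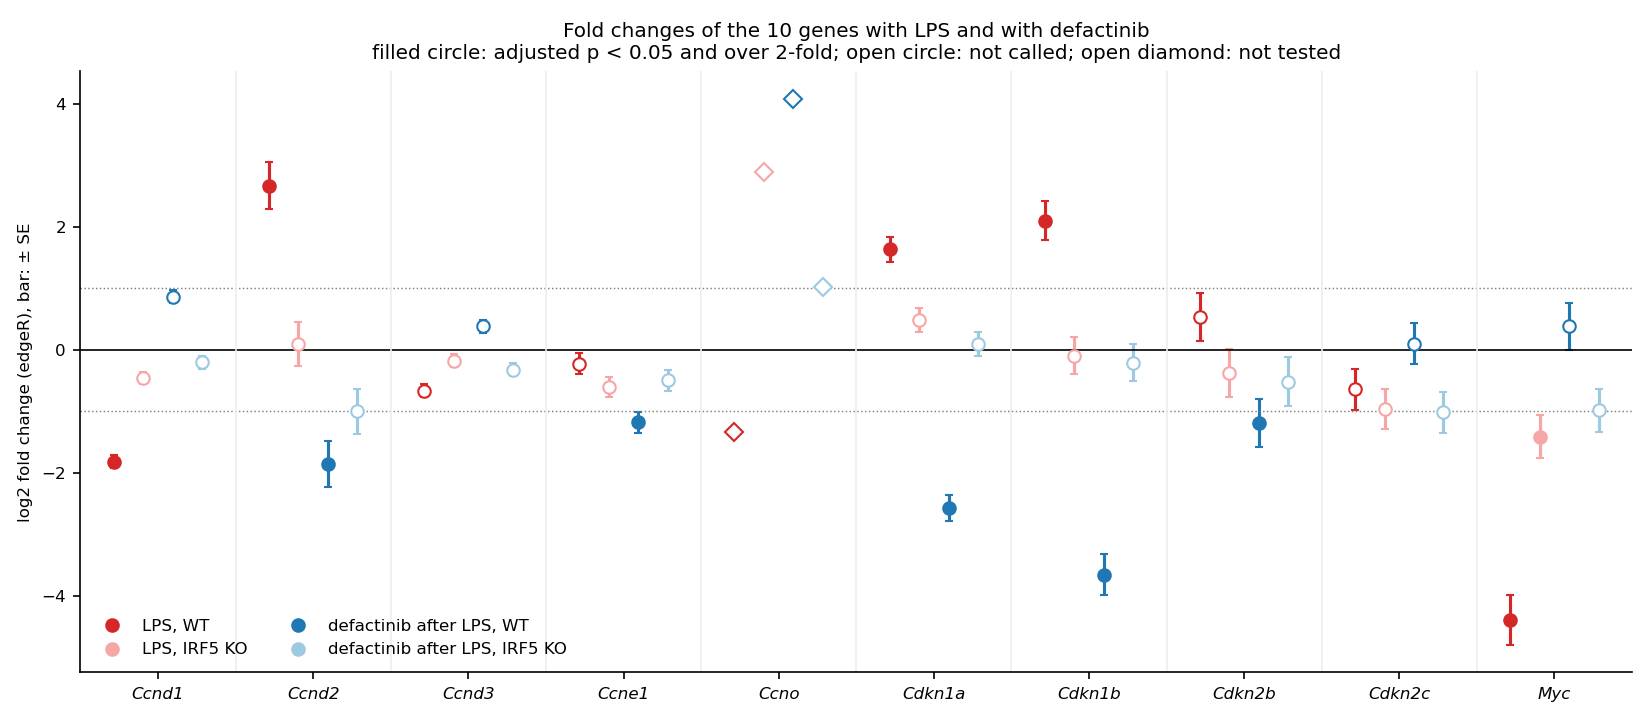
Log2 fold change of each gene (edgeR, bars ± SE, 3 libraries a group) with LPS and with defactinib after LPS in each genotype. Filled circles passed both thresholds, open circles did not, and open diamonds mark Ccno where it was not tested; dotted lines mark a 2-fold change.

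Ccnd1 (ENSMUSG00000070348, chr7:144929931-144939925, minus strand, mm10) encodes cyclin D1. It was at 64.4, 61.8 and 49.2 CPM in the WT unstimulated libraries and at 15.8, 18.1 and 15.9 CPM in WT LPS DMSO. It was at 31.5, 30.3 and 28.9 CPM in WT LPS defactinib, between both other WT groups and overlapping neither. LPS lowered Ccnd1 in WT by 3.52-fold (log2 fold change -1.82 ± 0.10 SE, adjusted p = 5.1e-09). With defactinib its log2 fold change was 0.87 ± 0.10 (adjusted p = 5.64e-06), short of the 2-fold threshold, and with library size alone as the scaling it was 1.07, past it.

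In IRF5 KO cells Ccnd1 was at 61.9, 61.1 and 60.1 CPM unstimulated, 45.9, 42.3 and 45.2 CPM with LPS DMSO, and 40.8, 39.1 and 35.8 CPM with LPS and defactinib. These groups did not overlap, but their differences were small: -0.46 ± 0.10 with LPS (adjusted p = 0.00461) and -0.20 ± 0.10 with defactinib (adjusted p = 0.234), neither called. Without replicate 3 of LPS DMSO they were -0.47 and -0.19, and without replicates 1 and 2 -0.42 and -0.24. The IRF5 KO LPS DMSO replicate 3, which stood apart elsewhere, lay between replicates 1 and 2 for Ccnd1. After LPS, WT cells held 2.68-fold less Ccnd1 than IRF5 KO cells (log2 fold change -1.42 ± 0.10, adjusted p = 9.51e-08), and the value was -1.41 without IRF5 KO LPS DMSO replicate 3 and -1.46 without replicates 1 and 2. WT and IRF5 KO unstimulated libraries overlapped, at -0.06 ± 0.10 (adjusted p = 0.79).

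Ccnd2 (ENSMUSG00000000184, chr6:127125162-127152193, minus strand) encodes cyclin D2 and had the largest D-type cyclin level per kb of exons in every library. It was at 319, 315 and 342 CPM in WT unstimulated and at 2111, 2119 and 1989.7 CPM in WT LPS DMSO. WT LPS defactinib was at 469, 294 and 951 CPM, all below the WT LPS DMSO libraries but 1 of them below all unstimulated ones. LPS raised Ccnd2 6.37-fold in WT (2.67 ± 0.38, adjusted p = 5.03e-05), and defactinib lowered it 3.63-fold from there (-1.86 ± 0.37, adjusted p = 0.000671).

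In IRF5 KO cells Ccnd2 was at 695, 809 and 684 CPM unstimulated, 514, 505 and 1317 CPM with LPS DMSO, and 385, 384 and 398 CPM with LPS and defactinib. The LPS DMSO libraries lay on both sides of the unstimulated ones, so the sign of the LPS difference depended on replicate 3: 0.09 ± 0.36 with it (adjusted p = 0.856), -0.52 without it and 0.87 without replicates 1 and 2, none called. With defactinib the log2 fold change was -1.002 ± 0.36 (adjusted p = 0.12), -0.39 without IRF5 KO LPS DMSO replicate 3, and -1.78 without replicates 1 and 2, where it was called (adjusted p = 0.0027). It was also called without IRF5 KO LPS DMSO replicate 2 (-1.25, adjusted p = 0.0488) and without WT LPS defactinib replicate 3 (-1.02, adjusted p = 0.05, just under the threshold before rounding).

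Unstimulated, Ccnd2 was the gene of the 10 that was called between genotypes, where 7.31% of all genes were called, 3.51% lower and 3.8% higher: WT cells held 2.24-fold less (-1.16 ± 0.37, adjusted p = 0.0425). The 3 WT libraries all lay below the 3 IRF5 KO libraries. The call was lost without any 1 of the 12 libraries of WT unstimulated, WT LPS DMSO, IRF5 KO unstimulated or IRF5 KO LPS defactinib, with log2 fold changes from -1.21 to -1.09. The summed level of 8 mast cell and basophil markers was 10.8 to 11.7 CPM in WT and 49.4 to 57.5 CPM in IRF5 KO unstimulated libraries. The sum was 45.5 to 58.2 CPM in WT LPS DMSO, 10.01 to 34.8 CPM in WT LPS defactinib, 50.2 to 102 CPM in IRF5 KO LPS DMSO and 51.0 to 55.5 CPM in IRF5 KO LPS defactinib, and 6 of the 8 markers were tested. Among them Fcer1a was at 0 in 14 of the 18 libraries and Cpa3 never above 1.07 CPM, whereas Gata2, Hdc and Kit made up most of the sum. Gata2 was at 3.16 to 3.35 CPM in WT unstimulated and 30.8 to 34.1 CPM in IRF5 KO unstimulated libraries, and at 0.313 to 51.5 CPM over all 18. Hdc was at 0.389 to 42.5 CPM over all libraries and above 30 CPM in WT LPS DMSO alone, and Kit at 6.29 to 20.8 CPM. Their part in the Ccnd2 differences was not tested. The other 9 genes were not called between unstimulated genotypes, with log2 fold changes from -0.80 for Cdkn2c to 0.67 for Cdkn2b. After LPS the order of Ccnd2 was the other way: WT LPS DMSO was 2.66-fold above IRF5 KO LPS DMSO (1.41 ± 0.37, adjusted p = 0.00518). That difference was 2.02 without IRF5 KO LPS DMSO replicate 3, and without replicates 1 and 2 it was 0.64 and not called.

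Ccnd3 (ENSMUSG00000034165, chr17:47505051-47599691, plus strand), cyclin D3, varied least of the D-type cyclins. It was at 96.1, 92.3 and 99.9 CPM in WT unstimulated, 60.3, 60.4 and 61.1 CPM in WT LPS DMSO, and 67.5, 93.6 and 76.5 CPM in WT LPS defactinib. LPS DMSO lay below both other WT groups, which overlapped each other. The log2 fold changes were -0.67 ± 0.10 with LPS (adjusted p = 9e-05) and 0.39 ± 0.10 with defactinib (adjusted p = 0.00504), both under 2-fold and so not called. In IRF5 KO its 9 libraries were at 64.0 to 98.4 CPM, at -0.17 ± 0.10 with LPS (adjusted p = 0.19) and -0.32 ± 0.10 with defactinib (adjusted p = 0.0853), or -0.23 and -0.27 without replicate 3 of LPS DMSO and -0.06 and -0.44 without replicates 1 and 2, none called. Genes on the opposite strand overlap Ccnd1, Ccnd2 and Ccnd3, and counting used the strand.

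Per kb of exons, Ccnd2 made up 59.7% ± 2.44 (SD, n = 3) of the summed D-type cyclin level in WT unstimulated libraries and 95.5% ± 0.154 in WT LPS DMSO. The lengths were those of merged exons, 4709 bases for Ccnd1, 9409 for Ccnd2 and 8775 for Ccnd3, the last from 89 exon rows. A gene whose expressed transcripts are much shorter than this is understated, so the shares of the genes against each other are approximate. The share of Ccnd1 went from 21.4% ± 3.02 to 1.53% ± 0.102, and that of Ccnd3 from 18.9% ± 0.606 to 3.00% ± 0.126. No library of either group overlapped the other in any of these shares. With defactinib the Ccnd2 share was 76.5% ± 11.3, and in the IRF5 KO groups it was 76.4% ± 1.64 unstimulated, 78.8% ± 7.6 with LPS DMSO and 72.2% ± 1.47 with LPS and defactinib. The summed D-type cyclin level was 57.9 ± 0.726 CPM per kb in WT unstimulated, 231 ± 7.81 in WT LPS DMSO and 76.2 ± 35.3 in WT LPS defactinib. In IRF5 KO it was 101 ± 7.35 unstimulated, 102 ± 50.3 with LPS DMSO and 57.2 ± 0.349 with LPS and defactinib.

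**Figure D3:**
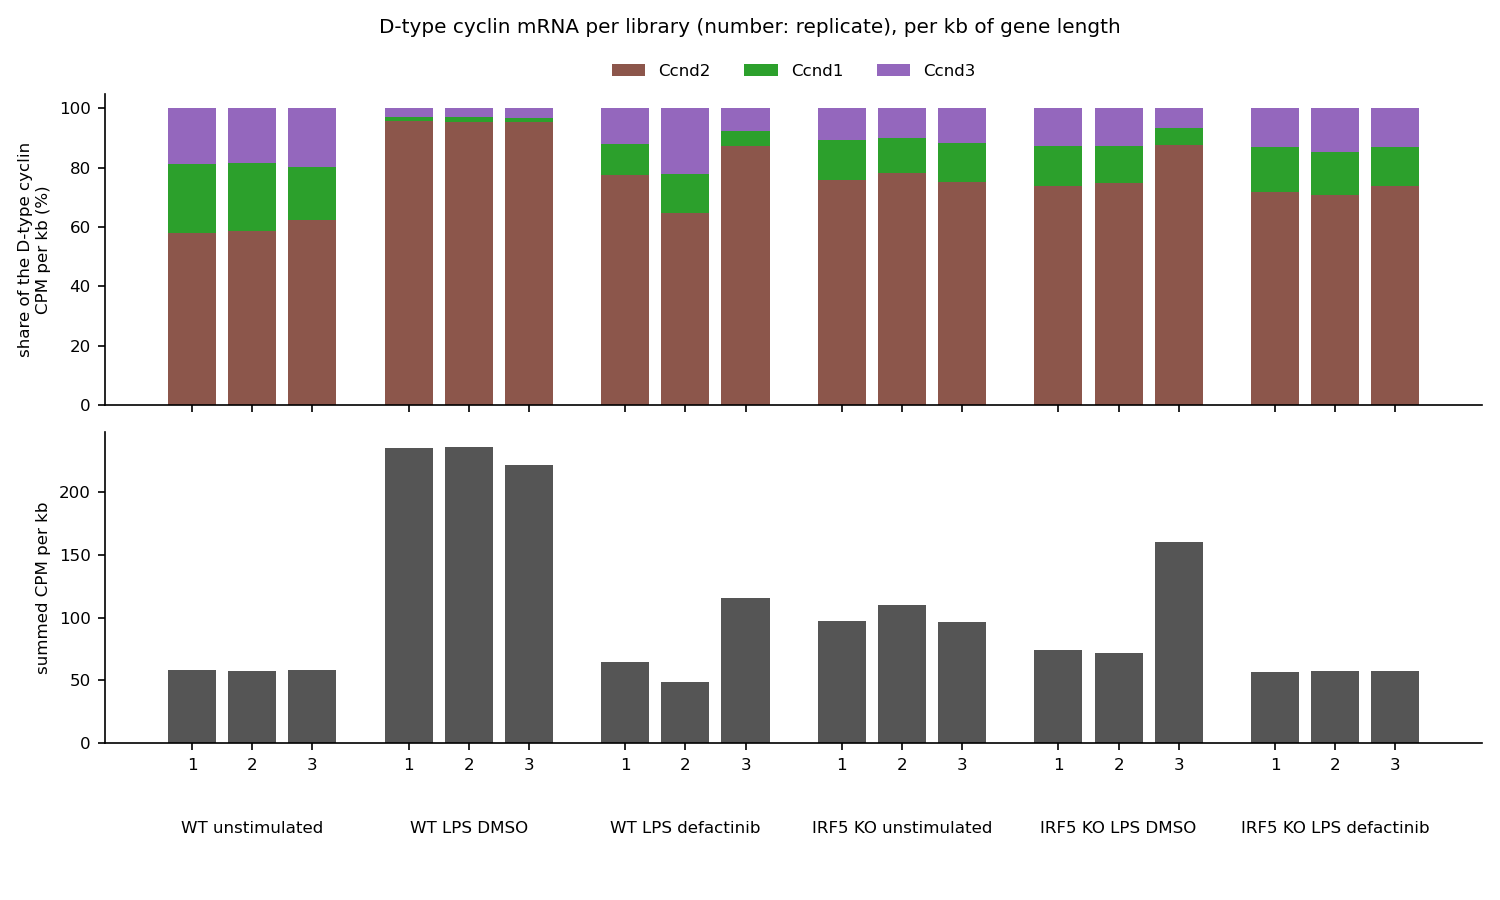
Upper panel: share of Ccnd1, Ccnd2 and Ccnd3 (%) in their summed CPM per kb of exons in each of the 18 libraries. Lower panel: that sum in CPM per kb. Ccnd2 held over 95% of the sum in the 3 WT LPS DMSO libraries, and IRF5 KO LPS DMSO replicate 3 had a higher sum than replicates 1 and 2.

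Ccne1 (ENSMUSG00000002068, chr7:38097984-38107534, minus strand), cyclin E1, was lower with defactinib in WT. It was at 23.3, 21.4 and 21.8 CPM in WT unstimulated and 17.9, 21.5 and 17.5 CPM in WT LPS DMSO, groups that overlapped (-0.23 ± 0.17, adjusted p = 0.319). It was at 7.91, 9.09 and 8.17 CPM in WT LPS defactinib, below all other libraries of the series. Defactinib lowered Ccne1 2.26-fold in WT (-1.18 ± 0.17, adjusted p = 4.63e-05), or -0.98 and under the threshold with library size alone. In IRF5 KO it was at 30.9, 37.5 and 30.9 CPM unstimulated, 17.6, 17.6 and 30.1 CPM with LPS DMSO, and 15.7, 14.96 and 15.6 CPM with LPS and defactinib. Replicate 3 of IRF5 KO LPS DMSO thus lay close to the unstimulated libraries and replicates 1 and 2 close to those with defactinib. Neither step was called, at -0.60 ± 0.17 with LPS (adjusted p = 0.0146) and -0.50 ± 0.17 with defactinib (adjusted p = 0.102). Without replicate 3 these were -0.91 and -0.19, and without replicates 1 and 2 they were -0.12 and -0.98, none past 2-fold. Between genotypes with LPS DMSO, Ccne1 was at -0.20 ± 0.17 (adjusted p = 0.342), 0.11 without replicate 3 and -0.68 without replicates 1 and 2, none called.

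Ccno (ENSMUSG00000042417, chr13:112987802-112990778, plus strand) was the gene chosen for its response. It was at 2.17, 2.00 and 2.60 CPM in WT unstimulated, 0.997, 0.793 and 0.890 CPM in WT LPS DMSO, and 17.6, 17.8 and 10.5 CPM in WT LPS defactinib. The WT LPS DMSO values rest on 43, 31 and 35 read pairs. As a description, the fitted log2 fold change with defactinib in WT was 4.09, beyond a 2-fold rise, and of the 10 genes the one just short of a 2-fold rise was Ccnd1 at 0.87. In the IRF5 KO libraries Ccno was at 3.18, 3.25 and 3.76 CPM unstimulated, at 36.0, 37.2 and 3.07 CPM with LPS DMSO and at 52.3, 53.6 and 49.7 CPM with LPS and defactinib. The libraries with LPS and defactinib were the highest of the series, and IRF5 KO LPS DMSO replicate 3 was below every unstimulated IRF5 KO library.

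As a description too, the fitted log2 fold change of Ccno with LPS in IRF5 KO cells was 2.90, and it rested on replicates 1 and 2: it was 3.43 without replicate 3 and -0.13 without replicates 1 and 2. LPS with defactinib against unstimulated does not use the LPS DMSO libraries, and there it was 3.93 in IRF5 KO cells. Defactinib against DMSO after LPS gave 1.03 in IRF5 KO cells, 0.50 without replicate 3 and 4.06 without replicates 1 and 2. Unstimulated, the 3 WT libraries lay below the 3 IRF5 KO libraries without overlap, by -0.59 ± 0.57, which was under 2-fold and not called (adjusted p = 0.596). Its SE and p rest on a spread estimated over all 18 libraries, among them IRF5 KO LPS DMSO at 3.07 to 37.2 CPM. They do not measure the spread of the unstimulated libraries alone.

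**Figure D4:**
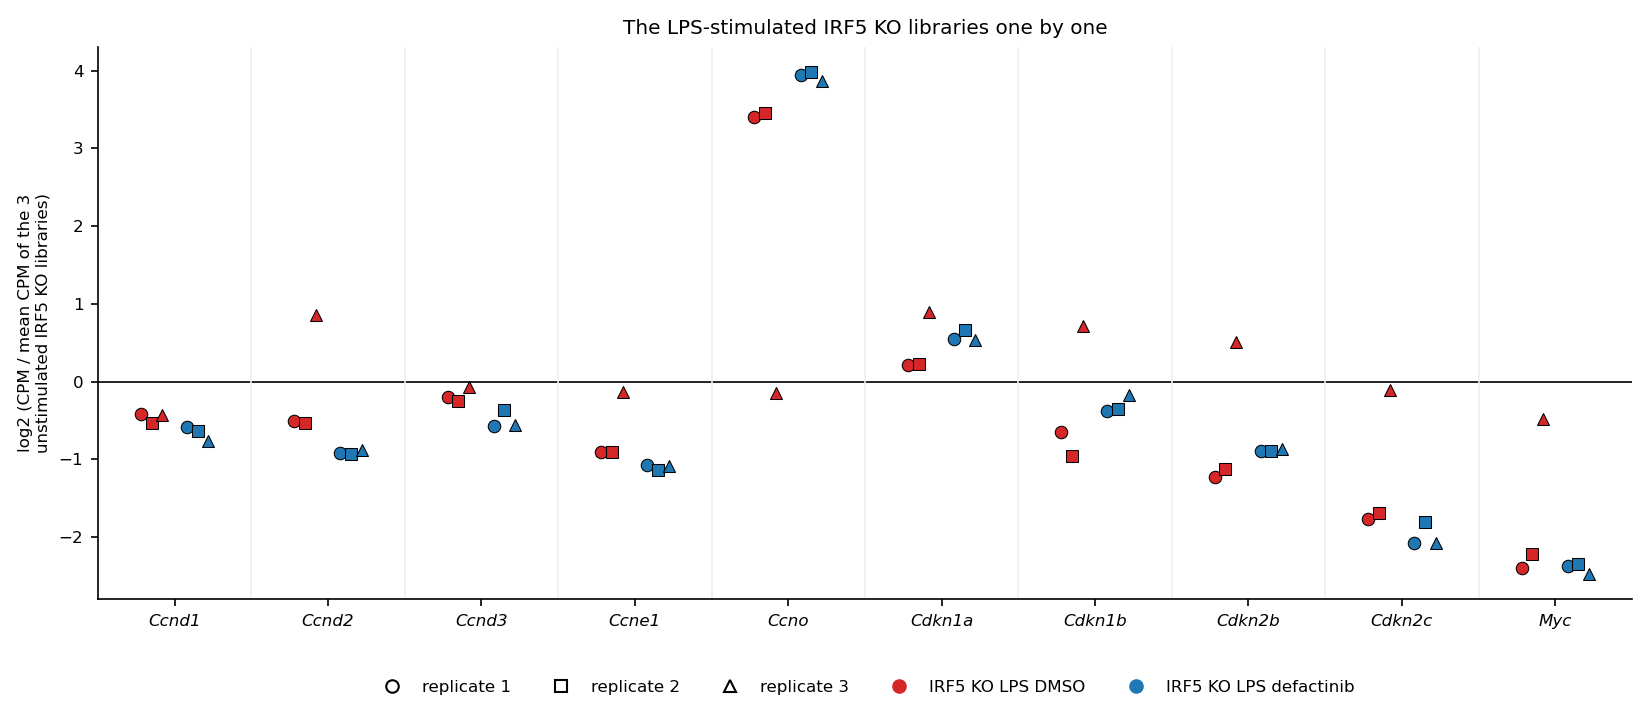
Log2 of the CPM of each LPS-stimulated IRF5 KO library over the mean CPM of the 3 unstimulated IRF5 KO libraries, for each of the 10 genes. Replicate 3 of LPS DMSO (red triangles) lay apart from replicates 1 and 2 for Ccnd2, Ccne1, Ccno, all 4 CDK inhibitors and Myc, while the 3 libraries with defactinib lay close together.

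Genes near or downstream of cyclin O in multiciliated cells were mostly not measurable: of 9, 4 passed the filter and Mcidas, Gmnc, Deup1, Ccdc78 and Cdc20b did not. Foxj1, the ciliogenesis factor, was at 12 to 16 read pairs in the WT LPS defactinib libraries and at most 10 in any other, and passed the filter through that group, so that its difference is not read as a result. With defactinib in WT, Cep152 and Plk4, centriole genes of all dividing cells, were called lower (-2.77 and -1.66). LPS in WT raised Cep152 (1.20) and Plk4 (1.18), and in IRF5 KO 0 of the 4 were called by edgeR with either step, where 0 with LPS and 2 with defactinib had an unadjusted p below 0.05 and DESeq2 called 0 and 1. Without IRF5 KO LPS DMSO replicate 3, 2 of the 4 were called lower with LPS, and without replicates 1 and 2, 2 were called lower with defactinib.

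Cdkn1a (ENSMUSG00000023067, chr17:29090979-29100722, plus strand), encoding p21, was the most abundant of the inhibitors per kb in every library. It was at 729, 752 and 828 CPM in WT unstimulated, 2302, 2412 and 2468 CPM in WT LPS DMSO, and 337, 311 and 559.8 CPM in WT LPS defactinib. The 3 WT groups did not overlap, and those with defactinib were the lowest. LPS raised Cdkn1a 3.11-fold (1.64 ± 0.20, adjusted p = 8.79e-06) and defactinib lowered it 5.94-fold (-2.57 ± 0.21, adjusted p = 1.24e-07). Against unstimulated cells, LPS with defactinib gave -0.93 ± 0.20 (adjusted p = 0.00124), not called with all libraries and -1.23 and called without WT LPS defactinib replicate 3.

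In IRF5 KO cells Cdkn1a was at 569, 518 and 589 CPM unstimulated, 648, 654 and 1041 CPM with LPS DMSO, and 815, 886 and 809.7 CPM with LPS and defactinib. Its LPS difference was 0.48 ± 0.20 (adjusted p = 0.0624), 0.22 without replicate 3 and 0.91 without replicates 1 and 2, and defactinib gave 0.10 ± 0.20 (adjusted p = 0.799) with libraries that overlapped, 0.36 without replicate 3 and -0.33 without replicates 1 and 2, none called. WT LPS DMSO was 3.06-fold above IRF5 KO LPS DMSO (1.62 ± 0.20, adjusted p = 1.23e-05), 1.88 without replicate 3 and 1.18 without replicates 1 and 2, called in each case. With LPS and defactinib the order was the other way: WT was 2.08-fold below IRF5 KO (-1.05 ± 0.20, adjusted p = 0.000613). This call was lost under 4 of 28 alternatives. Among them were the fits without WT LPS defactinib replicate 1 (-0.91) or 2 (-0.89), or IRF5 KO LPS defactinib replicate 2 (-0.998), which each gave under 2-fold.

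Cdkn1b (ENSMUSG00000003031, chr6:134920401-134925513, plus strand), encoding p27, moved in the same direction as Cdkn1a in WT and further. It was at 30.0, 28.3 and 25.2 CPM in WT unstimulated, 115, 127 and 118 CPM in WT LPS DMSO, and 9.58, 7.29 and 11.6 CPM in WT LPS defactinib, again without overlap. LPS raised it 4.31-fold (2.11 ± 0.31, adjusted p = 5.87e-05) and defactinib lowered it 12.6-fold (-3.66 ± 0.33, adjusted p = 5.21e-07), to 2.93-fold below unstimulated cells (-1.55 ± 0.31, adjusted p = 0.000884). In IRF5 KO it was at 39.8, 40.5 and 37.2 CPM unstimulated, 25.0, 20.3 and 64.6 CPM with LPS DMSO and 30.1, 30.6 and 34.7 CPM with LPS and defactinib. The LPS DMSO libraries spanned both other IRF5 KO groups. The LPS difference was -0.10 ± 0.30 (adjusted p = 0.82), -0.79 without replicate 3 and 0.73 without replicates 1 and 2, none called. That of defactinib was -0.20 ± 0.30 (adjusted p = 0.719), 0.49 without replicate 3, and -1.04 and called without replicates 1 and 2 (adjusted p = 8.98e-05). After LPS, WT was above IRF5 KO with DMSO by 1.71 ± 0.31 (adjusted p = 0.000336), 2.40 and called without replicate 3, though 0.87 and not called without replicates 1 and 2, and below it with defactinib by -1.74 ± 0.31 (adjusted p = 0.000442).

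Cdkn2b (ENSMUSG00000073802, chr4:89306289-89311032, minus strand), encoding p15, was at 12.9, 14.5 and 15.4 CPM in WT unstimulated, 22.8, 17.8 and 21.4 CPM in WT LPS DMSO, and 6.58, 5.68 and 14.95 CPM in WT LPS defactinib. Replicate 3 with defactinib lay among the unstimulated libraries and the other two below them. The LPS difference was 0.54 ± 0.39 (adjusted p = 0.297), and defactinib lowered Cdkn2b 2.28-fold (-1.19 ± 0.39, adjusted p = 0.018). That call was lost without WT LPS DMSO replicate 1 (adjusted p = 0.0522) and without WT LPS defactinib replicate 1 (0.0784) or 2 (0.088). In IRF5 KO Cdkn2b was at 9.75, 7.85 and 9.20 CPM unstimulated, 3.80, 4.08 and 12.7 CPM with LPS DMSO and 4.79, 4.79 and 4.89 CPM with LPS and defactinib. LPS DMSO replicate 3 was above all other IRF5 KO libraries, and LPS gave -0.37 ± 0.39 (adjusted p = 0.464), with -1.18 and a call without replicate 3 (adjusted p = 0.00321) and 0.52 without replicates 1 and 2. With defactinib it was -0.52 ± 0.40 (adjusted p = 0.46), 0.29 without replicate 3, and -1.41 with a call without replicates 1 and 2 (adjusted p = 0.0046). WT LPS DMSO was 3.00-fold above IRF5 KO LPS DMSO (1.58 ± 0.40, adjusted p = 0.00406), 2.39 and called without replicate 3, but 0.69 and not called without replicates 1 and 2, and not called with only both groups in the fit (1.54, adjusted p = 0.0571).

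Cdkn2c (ENSMUSG00000028551, chr4:109660876-109667189, minus strand), encoding p18, was at 8.71, 9.91 and 8.60 CPM in WT unstimulated, 5.80, 5.88 and 5.74 CPM in WT LPS DMSO, and 5.74, 6.76 and 6.17 CPM in WT LPS defactinib. Both LPS groups overlapped and lay below the unstimulated libraries, at -0.64 ± 0.33 with LPS (adjusted p = 0.137), not called. In IRF5 KO it was at 12.6, 21.2 and 13.7 CPM unstimulated, 4.65, 4.90 and 14.7 CPM with LPS DMSO and 3.76, 4.52 and 3.75 CPM with LPS and defactinib. LPS with defactinib lowered Cdkn2c 3.95-fold in IRF5 KO (-1.98 ± 0.34, adjusted p = 0.000329). LPS with DMSO gave -0.96 ± 0.33 (adjusted p = 0.0325), short of 2-fold, -1.73 with a call without replicate 3, -0.09 without replicates 1 and 2, and -1.10 with a call without IRF5 KO unstimulated replicate 1. Defactinib against DMSO gave -1.02 ± 0.34 (adjusted p = 0.0917), called by DESeq2 at -1.01 (adjusted p = 0.032). It was called too when LPS DMSO replicate 1 (-1.31), replicate 2 (-1.29) or both (-1.89) were left out, but was -0.25 without replicate 3. WT against IRF5 KO with LPS DMSO was -0.48 ± 0.33 (adjusted p = 0.231) and not called, 0.28 without replicate 3, and -1.36 with a call without replicates 1 and 2 (adjusted p = 0.000207).

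Cdkn1a made up 91.2% to 97.1% of the summed CPM per kb of the 4 inhibitors in the 18 libraries. The ratio of this sum to that of the D-type cyclins was 5.93, 6.27 and 6.74 in WT unstimulated, 4.60, 4.78 and 5.20 in WT LPS DMSO, and 2.50, 3.06 and 2.31 in WT LPS defactinib. The WT groups did not overlap and were in this falling order. In IRF5 KO the ratio was 2.84, 2.33 and 2.95 unstimulated, 4.09, 4.23 and 3.11 with LPS DMSO, and 6.66, 7.14 and 6.58 with LPS and defactinib, in the opposite order and also without overlap. These ratios are of mRNA per length of merged exons, so their size depends on the annotated lengths, and they say nothing of protein.

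Myc (ENSMUSG00000022346, chr15:61985391-61990374, plus strand) was at 39.1, 40.4 and 41.7 CPM in WT unstimulated, 1.74, 1.82 and 2.19 CPM in WT LPS DMSO, and 2.67, 2.89 and 1.93 CPM in WT LPS defactinib. Both LPS groups overlapped, far below the unstimulated libraries. LPS lowered Myc 21.1-fold in WT (-4.40 ± 0.41, adjusted p = 6.53e-07), and defactinib added 0.39 ± 0.39 (adjusted p = 0.405). In IRF5 KO Myc was at 37.8, 38.4 and 36.8 CPM unstimulated, 7.12, 8.06 and 27.0 CPM with LPS DMSO and 7.27, 7.39 and 6.75 CPM with LPS and defactinib. LPS lowered it 2.67-fold (-1.42 ± 0.35, adjusted p = 0.00814), -2.31 without replicate 3, and -0.46 and not called without replicates 1 and 2. With only both groups in the fit it was -1.37 and not called (adjusted p = 0.138).

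With defactinib, Myc in IRF5 KO gave -0.98 ± 0.35 (adjusted p = 0.114), -0.09 without LPS DMSO replicate 3, and it was called without replicate 1 (-1.32), replicate 2 (-1.28) or both (-1.94). LPS with defactinib against unstimulated lowered Myc in both genotypes, by 16.1-fold in WT (-4.01 ± 0.40, adjusted p = 2.57e-06) and 5.28-fold in IRF5 KO (-2.40 ± 0.36, adjusted p = 0.000155). WT was below IRF5 KO after LPS with DMSO (-2.88 ± 0.39, adjusted p = 2.75e-05) and with defactinib (-1.51 ± 0.37, adjusted p = 0.00489). The former was -1.99 without IRF5 KO LPS DMSO replicate 3 and -3.84 without replicates 1 and 2, called in each case. Unstimulated, the genotypes differed by 0.10 ± 0.34 (adjusted p = 0.918).

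Against unstimulated cells, LPS with defactinib moved 3 of 9 genes in WT, Ccne1 (-1.40 ± 0.18, adjusted p = 1.84e-05), Cdkn1b and Myc, all lower, where 24.9% of all genes were called, 15.8% lower and 9.1% higher. In IRF5 KO it moved 3 of 9, Ccne1 (-1.10 ± 0.17, adjusted p = 0.000181), Cdkn2c and Myc, all lower, where 24% of all genes were called, 16.2% lower and 7.85% higher. Ccne1 and Myc were thus called lower in both genotypes. In WT the fit without WT LPS defactinib replicate 3 also called Cdkn1a and Cdkn2b (-1.21), that without WT LPS defactinib replicate 2 called Ccnd2 (1.13), and that without WT unstimulated replicate 3 called Ccnd1 (-1.07).

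Between genotypes after LPS with DMSO, 6 of 9 genes were called, where 25.8% of all genes were, 14% higher and 11.8% lower in WT. Ccnd2, Cdkn1a, Cdkn1b and Cdkn2b were higher in WT, and Ccnd1 and Myc lower. The count was 6 without IRF5 KO LPS DMSO replicate 3, where 34.5% of all genes were called, and 4 without replicates 1 and 2, where 16% were. With LPS and defactinib 3 of 9 were called, Cdkn1a, Cdkn1b and Myc, all lower in WT, where 17.3% of all genes were called, 8.87% lower and 8.45% higher. Ccno, not tested in either, was at 0.893 ± 0.102 CPM in WT and 25.5 ± 19.4 CPM in IRF5 KO with DMSO, and at 15.3 ± 4.14 CPM and 51.9 ± 1.96 CPM with defactinib.

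The difference of the LPS responses between genotypes was tested as an interaction, and 5 of 9 genes passed, where 9.83% of all genes did, 6.33% with a higher and 3.49% with a lower value in WT. They were Ccnd1, Ccnd2, Cdkn1a, Cdkn1b and Myc, the same 5 that LPS moved in WT. Without IRF5 KO LPS DMSO replicate 3, 7 of 9 were called and 23.6% of all genes, 16.5% higher and 7.02% lower, and without replicates 1 and 2, 4 of 9 and 6.48% of all genes. The interaction with defactinib called 3 of 9, Ccnd1, Cdkn1a and Cdkn1b, where 22.8% of all genes were called, 10.5% with a higher and 12.3% with a lower value in WT. That count was 5 without replicate 3, where 31.6% of all genes were called, and 5 without replicates 1 and 2, where 19.1% were. The values of the interactions are given in the closing section.

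List counts, also those of the multiciliated cell genes above, stand beside the shares of all tested genes called. With LPS these were 11.6% higher and 9.71% lower in WT, and 7.07% and 6.28% in IRF5 KO. With defactinib they were 10.4% higher and 18.6% lower in WT, and 0.16% and 0.76% in IRF5 KO. A count near these shares is not read as a result about its list. In the G1/S regulators besides the 10 genes, of which 30 were tested, LPS in WT lowered 6 and raised 1, with E2f2 at -3.52, Skp2, which targets p27 for degradation, at -2.05 and E2f6 at -1.76 as the furthest. In IRF5 KO LPS lowered 3, Ccne2, Cdc25b and E2f2 (-1.10). Defactinib in WT lowered 7 and raised 4: E2f8, an E2F repressor, fell by 3.37 on the log2 scale, Ccne2 by 2.45 and Cdc25a by 1.99, while E2f2 rose (1.501). In IRF5 KO defactinib called 0 of the 30 by edgeR and 1 by DESeq2, with 5 at an unadjusted p below 0.05. Ccne2 was at 5.74 ± 0.553 CPM in WT LPS DMSO and 1.05 ± 0.431 CPM with defactinib, so both E-type cyclins were lower.

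Of the MYC network, 10 genes tested, LPS in WT raised Mxd1, a MAX partner that opposes MYC, 2.38 on the log2 scale, and lowered Mxd3, Mnt and Mxd4. Defactinib lowered 4, Mxd1 (-2.67), Mycl (-1.54), Max (-1.31) and Mga. In IRF5 KO 1 gene was called with each step, Mycl with LPS (-1.17) and Mxd3 with defactinib (-1.56), both lower, and DESeq2 called 2 with defactinib. Of 20 MYC target genes, LPS in WT lowered 3, Polr1b (-1.67), Ppan and Gnl3, and defactinib lowered 3, Rrs1 (-1.79), Ppan (-1.23) and Eif4e. In IRF5 KO 0 were called with either step by edgeR or DESeq2, with 9 at an unadjusted p below 0.05 with LPS and 5 with defactinib. The list's median log2 fold change with LPS in WT was -0.11, beside -0.00 over all genes.

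Of 15 p53 target genes besides Cdkn1a, LPS in WT raised 4 and lowered 5, with Eda2r at 2.75, Plk2 at 2.59 and Phlda3 at -2.33. In IRF5 KO LPS raised 3, Plk2 (2.17), Gadd45a (2.07) and Bbc3, and lowered Trp53inp1 (-1.31). Defactinib in WT lowered Bbc3 (-2.18), Eda2r (-2.01) and Plk2 (-1.38), as it lowered Cdkn1a, and raised Phlda3 (1.39), and in IRF5 KO it called 0 of the 15 by edgeR and by DESeq2, with 5 at an unadjusted p below 0.05. Between genotypes, 2 of the 15 were called higher in WT unstimulated, Perp (3.86) and Eda2r (1.35). With LPS DMSO 2 were higher, Perp (3.56) and Eda2r (3.52), and 4 lower, with Sesn2 at -2.03, or 3 and 3 if replicates 1 and 2 of IRF5 KO LPS DMSO are left out. With LPS and defactinib 1 was higher, Perp (4.31), and 6 were lower, with Sesn2 at -2.92 and Bbc3 at -2.06. Of all genes, 3.8% were called higher and 3.51% lower in WT unstimulated, 14% and 11.8% with LPS DMSO, and 8.45% and 8.87% with LPS and defactinib.

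Of 22 S phase and mitosis genes, LPS in WT raised 2, Mki67 (1.95) and Tyms, and lowered 3, Ccnf (-1.73), Aurka and Aurkb. Defactinib in WT lowered 2, Mki67 (-1.63) and Ccnf (-1.51). In IRF5 KO LPS lowered Aurka (-1.26) and defactinib lowered Cdc20 (-2.09), while DESeq2 called 4 and 3 genes in these comparisons. Against unstimulated cells, LPS with defactinib lowered 8 in IRF5 KO, with Plk1 at -3.19 and Cdc20 at -3.07, and raised 1, Mki67 (1.37), from 119.7 ± 32.5 to 308.8 ± 10.04 CPM, and lowered 5 in WT. In that comparison 16.2% of all genes were called lower and 7.85% higher in IRF5 KO, and 15.8% lower and 9.1% higher in WT. Of the other cyclins, 11 tested, LPS raised 3 in each genotype, and Ccng2, a cyclin linked to cell cycle arrest, rose by 3.43 in WT and 1.30 in IRF5 KO. Defactinib in WT lowered 5, with Ccng2 at -4.32, Ccnj at -4.12 and Ccnl1 at -1.83, and in IRF5 KO called 0 of the 11 by edgeR and by DESeq2, with 6 at an unadjusted p below 0.05. Ccng2 was at 23.98 ± 1.29, 258 ± 13.7 and 12.96 ± 1.72 CPM in the WT groups unstimulated, with LPS DMSO and with LPS and defactinib.

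The counts of these lists in IRF5 KO also turned on the LPS DMSO libraries. Without replicate 3, LPS lowered 7 and raised 1 of the G1/S regulators and lowered 6 and raised 1 of the S phase and mitosis genes, and defactinib called 0 genes of any list by edgeR, where 16.6% of all genes were called lower and 9.64% higher with LPS and 1.45% with defactinib. Without replicates 1 and 2, LPS called 0 genes of either list by edgeR, while defactinib lowered 7 G1/S regulators, 8 S phase and mitosis genes and 3 genes of the MYC network, and raised 5 p53 target genes, where 2.71% of all genes were called with LPS, and 14.6% lower and 4.63% higher with defactinib.

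**Figure D5:**
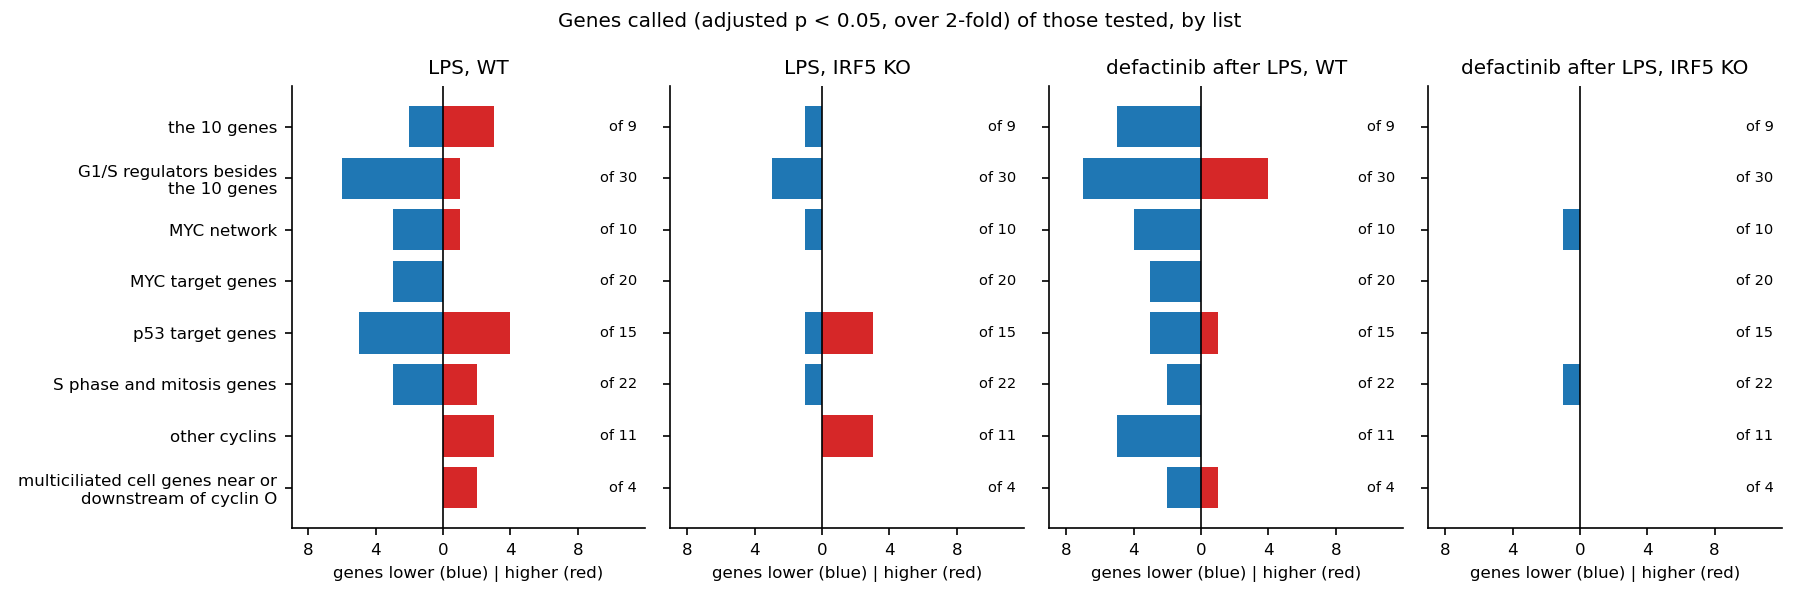
Number of genes called lower (blue, to the left) and higher (red, to the right) in each list, with the number tested at the right edge, for LPS and defactinib in each genotype. In WT defactinib lowered 5 of the 9 genes tested, where 18.6% of all genes were called lower and 10.4% higher. In IRF5 KO it called 0 of the 9 and 2 genes in all lists, where 0.919% of all genes were called. These IRF5 KO counts depended on which LPS DMSO libraries were used. The multiciliated gene called higher in WT is Foxj1, at 12 to 16 read pairs.

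The genes most like 4 of the 10 were sought by Pearson's r of log2 CPM over the 18 libraries, among genes averaging 3 or more on that scale, as a description. For Ccno they were Mrpl42 (r = 0.989), Jun (0.984) and P4hb (0.983). For Ccnd1 they were Zfp652 (0.974), Tet3 (0.972) and Mtmr3 (0.967), and for Cdkn1a Bcl2l1 (0.983), Ifi207 (0.980) and Tent4a (0.980). For Myc they were Ppp1r13b (0.984), Adra2a (0.979) and Lfng (0.973). Among the 10 genes themselves, Ccno ran most opposite to Cdkn2b (r = -0.917), Cdkn1a was closest to Cdkn1b (0.902), and Ccnd1 was closest to Myc (0.902). The libraries of a group share their treatment, so that these values mainly rest on the 6 groups.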

How the data were processed

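RNA-seq counts of 18 BMDM libraries, 3 per group, were analysed. The deposited table holds raw counts of read pairs per gene. The authors' methods and the header line of the file name STAR with mm10 for alignment and featureCounts 1.6.3 for counting uniquely mapped pairs over exons, reverse stranded. Multi-mapping pairs are thus not in the counts, so that near-identical copies of a gene would be undercounted. The deposited gene lengths (bases of merged exons) gave CPM per kb. Symbols were found for 50376 of 50600 genes.

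Counts were fitted with edgeR 4.0.16 (R 4.3.3): counts were scaled by TMM and filtered by filterByExpr, all 18 libraries entered a robust quasi-likelihood model with a mean for each of the 6 groups, and p-values of two-sided F tests were adjusted by Benjamini-Hochberg across 15663 genes. The authors used DESeq2, here an alternative (1.42.0), as was limma-voom (limma 3.58.1). The thresholds, an adjusted p of 0.05 and a 2-fold change, follow the study's methods. SE is the log2 fold change divided by the square root of F, and SD is over 3 libraries. The design states biological replicates. Each p-value rests on a spread per gene that was estimated within groups over all 18 libraries. Scatter in a group outside a comparison thus also enters its p-value. The 10 genes and the lists (G1/S regulators, MYC network, MYC targets, p53 targets, S phase and mitosis, other cyclins, multiciliated cell genes, and cell type markers) were chosen with earlier results of these data known. All 10 genes are named, and from each list the counts and up to 3 called genes with the largest changes. Further list genes named beside these were chosen after their values were seen. Irf5 was checked first. Promoter windows were those whose start had the most annotated transcript starts nearby. The test was tried on simulated data. Other scalings, filters, tests, fits, thresholds, a replicate block and leaving out libraries were the alternatives, and leaving out IRF5 KO LPS DMSO replicates 1 and 2 together was chosen after seeing the data.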

Additional observations from a re-analysis of the deposited data

Results flagged for a closer look

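The LPS response of 5 genes differed between WT and IRF5 KO by a test of the difference itself (edgeR interaction, WT minus IRF5 KO on the log2 scale). Ccnd2 was at 2.58 ± 0.52 (SE, adjusted p = 0.00424), Cdkn1b at 2.20 ± 0.43 (adjusted p = 0.00329) and Cdkn1a at 1.15 ± 0.28 (adjusted p = 0.0112). Myc was at -2.98 ± 0.51 (adjusted p = 0.00153) and Ccnd1 at -1.36 ± 0.14 (adjusted p = 3.87e-05). Each was more raised, or for Ccnd1 and Myc more lowered, by LPS in WT. Without IRF5 KO LPS DMSO replicate 3 they were 3.19 for Ccnd2, 2.90 for Cdkn1b, 1.42 for Cdkn1a, -2.09 for Myc and -1.35 for Ccnd1, all called, and Cdkn2b (1.72) and Cdkn2c (1.08) were called too, in a fit that called 23.6% of all genes against 9.83% with all libraries. Without replicates 1 and 2 they were 1.80, 1.36, 0.72, -3.94 and -1.41 in the same order, and Cdkn1a was not called, where 6.48% of all genes were. With library size alone as the scaling Cdkn1a (0.99) was not called either.

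The response to defactinib after LPS differed between genotypes for 3 genes: Cdkn1b at -3.45 ± 0.44 (adjusted p = 2.54e-05), Cdkn1a at -2.67 ± 0.28 (adjusted p = 3.76e-06) and Ccnd1 at 1.07 ± 0.14 (adjusted p = 3.79e-05). Both inhibitors were lowered in WT and not called in IRF5 KO, and Ccnd1 was not called in either genotype alone. Without IRF5 KO LPS DMSO replicate 3 the values were -4.15, -2.93 and 1.06, and without replicates 1 and 2 they were -2.61, -2.22 and 1.13, called in each case. Ccnd2 (-1.47) and Cdkn2b (-1.48) were called too without replicate 3, where 31.6% of all genes were called, and Cdkn2c (2.01) without replicates 1 and 2, where 19.1% were, against 22.8% with all libraries. Myc was at 1.37 ± 0.52 (adjusted p = 0.051) and not called. It was called under 7 of 28 alternatives, among them DESeq2 (1.35, adjusted p = 0.024) and the fits without replicate 1 (1.72), replicate 2 (1.68) or both (2.34, adjusted p = 3.31e-07) of IRF5 KO LPS DMSO, and was 0.47 and not called without replicate 3.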

How the results depend on the processing

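Of the values of 10 genes in 11 comparisons, 110 in all, 47 kept direction and call under all 28 alternatives, 16 changed sign under at least 1 and 47 changed call, 6 of them counted in both, and 6 further values of Ccno, not tested, kept their sign but moved by more than the spread between replicates. The counts below are of the genes tested, 10 between unstimulated genotypes and 9 elsewhere, where Ccno was not tested. The share of all genes called changes with the setting too. Where no such share stands beside a count, the count describes its fit and is not read as a result about these genes. The cause was not tested unless fewer libraries or genes set it. Without IRF5 KO LPS DMSO replicates 1 and 2, the number called was 0 with LPS in IRF5 KO, 5 with defactinib in IRF5 KO and 5 for the genotype by defactinib interaction. The reversed log2 fold changes there were, with LPS in IRF5 KO, -0.13 for Ccno, 0.73 for Cdkn1b and 0.52 for Cdkn2b, with defactinib in IRF5 KO -0.33 for Cdkn1a, and in the interactions -0.11 for Ccne1 and -0.56 for Cdkn2c (LPS) and 0.24 for Cdkn2b (defactinib).

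The LPS interaction called 4 to 7 genes over all alternatives. Leaving out each library in turn gave 1 to 3 genes called with LPS in IRF5 KO, 0 to 3 with defactinib in IRF5 KO, 3 to 5 for LPS with defactinib against unstimulated in WT, 0 to 1 between unstimulated genotypes and 3 to 5 for the defactinib interaction. Over all genes, 26.2% were called with LPS in IRF5 KO without IRF5 KO LPS DMSO replicate 3, against 13.3% with all libraries. The log2 fold changes that took both signs ranged from -0.52 to 0.34 for Ccnd2 and -0.79 to 0.21 for Cdkn1b with LPS in IRF5 KO, and from -0.032 to 0.36 for Cdkn1a, -0.51 to 0.49 for Cdkn1b and -0.82 to 0.29 for Cdkn2b with defactinib in IRF5 KO. Between genotypes they ranged from -0.14 to 0.049 for Ccnd1 and -0.015 to 0.042 for Ccnd3 unstimulated, from -0.35 to 0.11 for Ccne1 and -0.78 to 0.28 for Cdkn2c with LPS DMSO, and from -0.013 to 0.88 for Ccnd2 with LPS and defactinib.

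With library size alone as the scaling, the median of all genes moved by -0.378 with LPS in WT and 0.201 with defactinib in WT. It moved by -0.237 with LPS in IRF5 KO and 0.328 for the defactinib interaction. For LPS with defactinib against unstimulated it moved by -0.178 in WT and -0.363 in IRF5 KO. With this scaling, LPS with defactinib against unstimulated called 5 genes in WT and 6 in IRF5 KO, the defactinib interaction 6, and LPS in IRF5 KO 2. Values that changed sign were -0.10 for Ccnd2 with LPS in IRF5 KO, -0.051 for Cdkn1a with defactinib in IRF5 KO, and -0.10 for Ccnd3 and -0.010 for Myc between unstimulated genotypes. With no fold change threshold the counts were 4 with LPS in IRF5 KO, 6 in WT and 7 in IRF5 KO for LPS with defactinib against unstimulated, 2 between unstimulated genotypes, 5 between genotypes with LPS and defactinib, and 5 for the defactinib interaction. The shares of all genes given above hold for the 2-fold threshold and cannot be set beside these counts. With only the groups compared in the fit, 0 were called with LPS in IRF5 KO. DESeq2 called 1 with defactinib in IRF5 KO. With no filter, 0 were called between unstimulated genotypes, where Ccnd3 was at -0.0035. In limma-voom 2 were called with LPS in IRF5 KO, where Ccnd2 was -0.054.

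The labels number the replicates alike in all groups. Same-numbered libraries did not deviate together: over 45 pairs the median correlation of deviations was 0.0046 and 4 were over 0.1, so the numbers were not taken as pairs. With a replicate block the genes called, listed without a share over all genes, were 5 with LPS in WT, 2 with LPS in IRF5 KO, 5 and 0 with defactinib in WT and IRF5 KO, 3 and 3 for LPS with defactinib against unstimulated, 1, 6 and 3 between genotypes and 5 and 3 for the interactions, and Ccnd2 with LPS in IRF5 KO was at -0.025. Ccno rested on 31 to 43 read pairs in WT LPS DMSO, and the other genes had at least 71 in every library.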
